A study of Rattus norvegicus with 18 samples.

Results

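The genes described here are 36 genes of cholesterol and lipid synthesis, chosen by name as enzymes of the mevalonate, sterol and fatty acid pathways and as the regulators, carriers and exporters that act with them. Of these 36, 35 were measured, by 62 probe sets, among 14217 named genes and 31042 probe sets on the array; Hmgcs1, which encodes the synthase that makes the substrate of the rate-limiting step, was not analysed here. By role they are 7 enzymes of the mevalonate and isoprenoid pathway (of 8 listed), 11 enzymes from squalene to cholesterol, 5 regulators, 4 genes of sterol transport and uptake, and 8 genes of fatty acid and glycerolipid synthesis. For a gene with several probe sets, the one brightest on average over the arrays is given.

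RNA came from rat hippocampal neurons in dissociated culture infected with lentivirus on day 3; on day 10 the ligand 4-hydroxytamoxifen (4OHT) was given for 0, 1 or 2.5 h. MEF2-VP16-ER is the transcription factor MEF2 joined to the viral VP16 activation domain and to the hormone-binding domain of the estrogen receptor, so that 4OHT switches it on. The control, MEF2deltaDBD-VP16-ER, lacks the DNA-binding domain, and all 6 groups therefore carried a virus and a VP16 fusion. Each group held 3 arrays, numbered 1 to 3 as biological replicates in the labels, and arrays of 1 number may share a culture, which the labels do not state; p-values measure only the spread among these arrays. The promoter of the virus and the share of cells that took it up are not stated in the labels. The deposited values are linear intensities. Differences are on the log2(intensity + 16) scale, which understates changes of dim genes, and errors are standard errors (SE) of the fit. The words rose, fell and called are kept for genes with an adjusted p under 0.05 in limma's test (Benjamini-Hochberg over all 31042 probe sets). In RNA from a whole culture, fewer cells of a type and less RNA per cell cannot be told apart.

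Array medians lay between 190.3 and 196.9. Summed over 15 neuronal markers the intensity was 67361 to 78811, over 11 astrocyte markers 43655 to 62046, and over 11 oligodendrocyte lineage markers 8360 to 18745, so these cultures gave signal of neurons and of glia. Microglial markers summed to 1107 to 1611 over 10 genes, fibroblast markers to 1699 to 3172 over 8 and endothelial markers to 283 to 328 over 5. Of all these markers 0 were called in the inductions at 1 h and 2.5 h.

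Cells make cholesterol from acetyl-CoA through mevalonate, isoprenoids, squalene and a series of sterols. When sterols in the endoplasmic reticulum run low, the escort protein Scap carries the precursors of the SREBP transcription factors (Srebf1 and Srebf2) to the Golgi, where they are cut and released to switch on the genes of synthesis; the Insig proteins hold Scap back when sterols are plentiful. Oxysterols act in the opposite sense through the nuclear receptor LXR, whose targets include the exporters Abca1 and Abcg1, Srebf1, and Mylip, a ubiquitin ligase that marks the LDL receptor for breakdown. In the brain cholesterol is made locally, in large part by glia, and oligodendrocytes use it for myelin.

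Promoters were read from RefSeq (build GRCr8) for 27 of the 35 measured members, as 28 windows of 300 bases (250 before and 50 after the start). Whether the letters in them bear on the differences between arrays given below was not tested. The 250 bases before the start are printed for Msmo1 and Nsdhl (a methylsterol oxidase and a sterol dehydrogenase), for the regulator Srebf2 and for Mylip. Capitals mark the SREBP-type letters TCACNCCA and the NF-Y letters CCAAT, also where they lie on the other strand as ATTGG.
Msmo1, chr16:29746863-29747112 (+): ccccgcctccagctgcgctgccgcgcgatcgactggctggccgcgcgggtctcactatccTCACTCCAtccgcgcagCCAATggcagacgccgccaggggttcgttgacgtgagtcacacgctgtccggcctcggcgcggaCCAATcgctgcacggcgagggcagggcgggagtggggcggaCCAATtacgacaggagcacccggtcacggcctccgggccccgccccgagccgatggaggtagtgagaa
Nsdhl, chrX:155817110-155817359 (+): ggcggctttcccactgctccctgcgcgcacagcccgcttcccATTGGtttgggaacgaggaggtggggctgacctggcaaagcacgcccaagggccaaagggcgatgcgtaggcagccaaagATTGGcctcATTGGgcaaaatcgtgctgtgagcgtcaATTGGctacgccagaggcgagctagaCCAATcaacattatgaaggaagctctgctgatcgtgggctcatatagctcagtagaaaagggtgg
Srebf2, chr7:115543057-115543306 (+): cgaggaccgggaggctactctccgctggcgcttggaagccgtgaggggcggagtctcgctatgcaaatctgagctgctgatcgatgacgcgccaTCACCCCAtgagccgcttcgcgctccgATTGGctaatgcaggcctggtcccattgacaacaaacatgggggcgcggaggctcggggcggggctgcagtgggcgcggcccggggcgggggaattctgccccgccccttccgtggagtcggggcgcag
Mylip, chr17:19514472-19514721 (-): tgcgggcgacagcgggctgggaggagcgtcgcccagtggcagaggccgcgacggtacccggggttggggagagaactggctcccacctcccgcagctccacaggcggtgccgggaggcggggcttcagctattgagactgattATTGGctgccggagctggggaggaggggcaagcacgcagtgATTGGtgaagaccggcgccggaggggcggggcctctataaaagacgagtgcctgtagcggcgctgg
On both strands, CCAAT stood in 21 of the 28 windows of members (75%) and in 37.5% of all 33469 windows of the same length, with 5 copies each in Nsdhl and Mvk. GGGCGG, the letters bound by Sp1, stood in 22 (78.6%) against 33.1%. TCACNCCA stood in 2 (7.14%), those of Msmo1 and Srebf2, against 3.89%, and the longer TCACNCCAC in 0 against 1.12%. The MEF2 consensus stood in 0 windows of members against 3.29% of all, and the LXR direct repeat (GGTCA and AGGTCA with 4 bases of any kind between them) in 0 against 0.012%. These are matches of letters within 300 bases. The MEF2, LXR and longer TCACNCCAC letters are so rare in all windows that 0 of 28 cannot show whether members have fewer of them. The other 8 measured members (Sqle, Fdft1, Pmvk, Stard4, Fasn, Acaca, Elovl6 and Abcg1) are not among these windows.

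Most members differed more between the replicate numbers than between constructs or times. Of the 35, 30 were called in number 3 against number 1, 24 higher and 6 lower; over all probe sets 28.1% were called (13.6% higher, 14.4% lower). The median difference of the members was 0.57, against 0.00 over all probe sets. Number 2 against 1 gave 19 calls (16 higher, 3 lower; 7.05% of all probe sets, 2% higher and 5.05% lower) with a median of 0.20, and number 3 against 2 gave 26 (20 higher, 6 lower; 21.2%, 11.9% higher and 9.33% lower) with a median of 0.33. These differences were taken within the 6 groups, with 6 arrays a number, in a fit with group and number as terms. The numbers are names of replicates and not a condition, and what differed between them besides the arrays is not stated in the labels.

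In the mevalonate and isoprenoid pathway 6 of 7 genes were called higher in number 3 than in number 1. Mvd, which decarboxylates mevalonate diphosphate, showed the largest difference among the 35. In control neurons its intensities in numbers 1, 2 and 3 were 625, 827 and 1418 at 0 h, 620.0, 901 and 1707 at 1 h and 868, 1121 and 1792 at 2.5 h. In MEF2-VP16-ER neurons they were 694, 1542 and 1509, 548, 823 and 1570.4 and 525, 1196 and 1471. Number 1 was lowest in each of the 6 groups and number 3 highest in 5 of them; the exception was MEF2-VP16-ER at 0 h, where number 2 was highest. Number 3 lay 1.28 ± 0.11 above number 1 (2.43-fold, limma adjusted p = 9.38e-07). Acat2, the thiolase that joins the first pair of acetyl-CoA units, ranged from 1816 to 3160.2 (median 2092) in number 1, from 2461 to 4269.7 (median 3225) in number 2 and from 4409 to 5274 (median 4767) in number 3 (6 arrays each), and number 3 overlapped neither of the others. The difference of number 3 from number 1 was 1.14 ± 0.12 for Acat2, 0.93 ± 0.08 for mevalonate kinase Mvk, 0.92 ± 0.08 for the isomerase Idi1, 0.78 ± 0.07 for farnesyl diphosphate synthase Fdps and 0.15 ± 0.05 for phosphomevalonate kinase Pmvk. The dimmer probe sets of Mvk gave 0.75 (limma adjusted p = 1.72e-05) and 0.00 (adjusted p = 0.962, not called). Ggps1, which leads away from sterols to geranylgeranyl groups, was not called (-0.00 ± 0.07). Its 18 values lay between 266 and 387.

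All 11 enzymes from squalene to cholesterol were called higher in number 3 than in number 1, by 0.39 (Ebp) to 1.02 (Hsd17b7), with a median of 0.69. Sqle, squalene epoxidase, which takes the first oxygen-requiring step, gave 2487, 2982 and 4582 in numbers 1, 2 and 3 of the control at 0 h, 2211, 3023 and 5052 at 1 h and 2902, 3474 and 4509.6 at 2.5 h. In MEF2-VP16-ER neurons it gave 2560.0, 4373 and 4832 at 0 h, 2312, 3087 and 4891 at 1 h and 2401, 3575 and 4502 at 2.5 h. In every group number 1 was lowest and number 3 highest, and all 6 values of number 3 lay above the other 12. Number 3 exceeded number 1 by 0.93 ± 0.07 (1.91-fold, limma adjusted p = 4.25e-07) and number 2 exceeded number 1 by 0.45. The other differences of number 3 from number 1 were 0.65 ± 0.05 for squalene synthase Fdft1, 0.99 ± 0.11 for lanosterol synthase Lss, 0.41 ± 0.06 for the demethylase Cyp51, 0.67 ± 0.06 for the reductase Tm7sf2, 0.69 ± 0.06 for Msmo1 and 0.78 ± 0.08 for Nsdhl. They were 1.02 ± 0.10 for the reductase Hsd17b7, 0.39 ± 0.07 for the isomerase Ebp, 0.77 ± 0.08 for the desaturase Sc5d and 0.57 ± 0.06 for Dhcr7, which makes cholesterol in the last step. Number 2 was called higher than number 1 for 9 of the 11 and number 3 higher than number 2 for 10 of the 11.

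**Figure D1:**
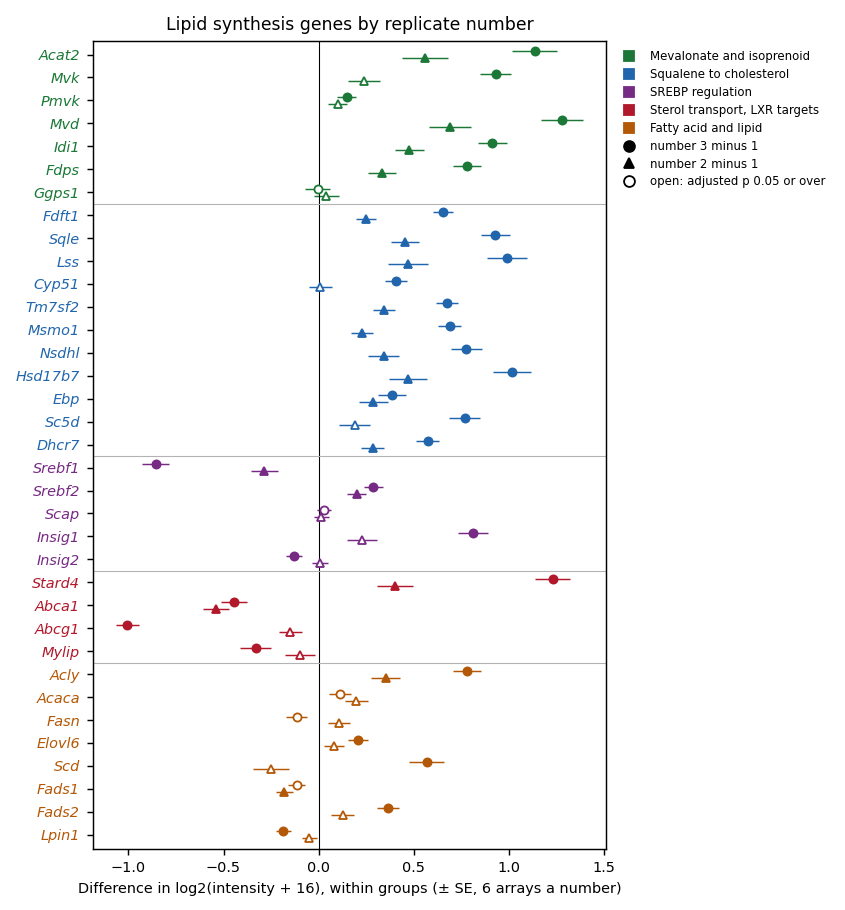
Difference of replicate numbers 3 and 2 from number 1 in log2(intensity + 16) for the 35 genes, taken within groups; circles are number 3 minus 1, triangles number 2 minus 1, bars SE over 6 arrays a number, open symbols adjusted p of 0.05 or over, colours the roles. The 11 sterol enzymes lie between 0.39 and 1.02 for number 3, while Srebf1 (-0.86) and Abcg1 (-1.01) lie on the other side of 0.

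Among the regulators the calls went both ways. Insig1, a sterol-responsive retention factor and itself an SREBP target, gave 2259, 2421 and 4063 in numbers 1, 2 and 3 of the control at 0 h and 2467, 3448 and 4221 with MEF2-VP16-ER at 0 h. Number 3 was highest in all 6 groups, and Insig1 was 0.81 ± 0.08 higher there than in number 1. Srebf1, the SREBP that mainly serves fatty acid synthesis and is an LXR target, went the other way, with 5624, 5051 and 2985 in control at 0 h, 5819, 4779 and 3445 at 1 h and 6236, 4688 and 3081 at 2.5 h. With MEF2-VP16-ER it gave 5382, 4595 and 4029.8 at 0 h, 4898, 3971 and 2439.9 at 1 h and 4964, 3944 and 2385 at 2.5 h. Number 1 was highest and number 3 lowest in each group, a difference of -0.86 ± 0.07 (limma adjusted p = 5.47e-07). Srebf2, the SREBP that mainly serves cholesterol synthesis, lay between 2254 to 2434 (median 2286) in number 1, 2414 to 3096 (median 2634) in number 2 and 2612 to 3080.0 (median 2829) in number 3, and was 0.29 ± 0.05 higher in number 3 than in number 1. The dimmer probe set of Srebf2 gave 0.09 (limma adjusted p = 0.184, not called). By its brighter probe set Insig2 was slightly lower in number 3 than in number 1 (-0.13 ± 0.04), with all values between 499 and 644. That call was kept in 8 of 13 fits with arrays left out. The dimmer probe set of Insig2 gave 0.00 (adjusted p = 0.982, not called). Scap was not called (0.03 ± 0.04) and ranged only from 1344 to 1549.

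The genes of sterol transport also divided. Stard4, which carries cholesterol between membranes and is an SREBP target, had control values of 167, 217 and 412 at 0 h, 168, 260.1 and 537 at 1 h and 294, 291 and 593 at 2.5 h in numbers 1, 2 and 3. With MEF2-VP16-ER they were 230.3, 386 and 476, 206, 243 and 542 and 212, 320.0 and 536. The 6 values of number 3 lay above the other 12, and number 3 exceeded number 1 by 1.23 ± 0.09 (2.35-fold, limma adjusted p = 2.76e-07). This value depends on the probe set: the dimmer ones of Stard4 gave 0.71 (adjusted p = 1.76e-05) and 0.14 (adjusted p = 0.0514, not called). Abcg1, which exports cholesterol to lipoproteins, was between 711 to 814 (median 765) in number 1, 597 to 741 (median 706) in number 2 and 307 to 440.2 (median 378) in number 3. All values of number 3 lay below all others, a difference from number 1 of -1.01 ± 0.06 (limma adjusted p = 6.16e-08). The dimmer probe sets of Abcg1 gave -0.82 (adjusted p = 4.92e-07) and -0.10 (adjusted p = 0.14, not called). Abca1, the exporter that loads apolipoproteins, stood apart in number 1 instead, at 539.5 to 737 (median 643) there, 360.2 to 488 (median 452) in number 2 and 422 to 487 (median 469) in number 3. It was called lower in number 2 (-0.54) and in number 3 (-0.45 ± 0.07). Mylip was 0.33 ± 0.08 lower in number 3 than in number 1 on the log2 scale, which was small beside its differences between groups.

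In fatty acid and lipid synthesis 4 of 8 genes were called higher in number 3 than in number 1 and 1 lower. Acly, which supplies cytosolic acetyl-CoA to both pathways, was 0.78 ± 0.08 higher. The desaturase Scd was 0.57 ± 0.09 higher than number 1 and 0.82 ± 0.09 higher than number 2, with values from 1059.9 to 1739.6 (median 1534) in number 3. Fads2 (0.37 ± 0.06) and the elongase Elovl6 (0.21 ± 0.05) were higher by less. Lpin1, a phosphatidate phosphatase of glycerolipid synthesis, was lower (-0.19 ± 0.04). Acaca and Fasn, which make and use malonyl-CoA, and the desaturase Fads1 were not called (0.11, -0.11 and -0.12). Fasn lay between 4865 to 6037 (median 5251) in number 1, 5221 to 6555 (median 5501) in number 2 and 4624 to 5651 (median 4682) in number 3, and was called lower in number 3 than in number 2 (-0.22).

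Counted by array, number 3 was highest in each of the 6 groups for 17 of 35 members (48.6%), against 7.01% of all probe sets, and lowest in each for 3 (8.57%, Srebf1, Abcg1 and Lpin1), against 6.19%. Number 1 was lowest in each group for 14 members (40%), against 1.65%, and highest in each for 4 (11.4%, Srebf1, Abca1, Abcg1 and Mylip), against 4.53%. All 6 arrays of number 3 lay above the other 12 for 12 members (34.3%), namely Acat2, Mvk, Idi1, Fdps, Fdft1, Sqle, Cyp51, Msmo1, Nsdhl, Hsd17b7, Sc5d and Stard4, against 2.97% of all probe sets. They lay below for Abcg1 (2.86%), against 2.26%. Fits on fewer arrays gave fewer calls, among the members and among all probe sets. In number 3 against 1, 26 of 35 members were called within control arrays alone (14.9% of all probe sets), 26 within MEF2-VP16-ER arrays alone (14.5%) and 24 at 0 h alone (8.65%). In number 3 against 2 the counts were 23 (12.7% of all probe sets), 8 (3.76%) and 5 (3.71%). In number 2 against 1 they were 2 (0.915%), 7 (1.5%) and 1 (0.438%).

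**Figure D2:**
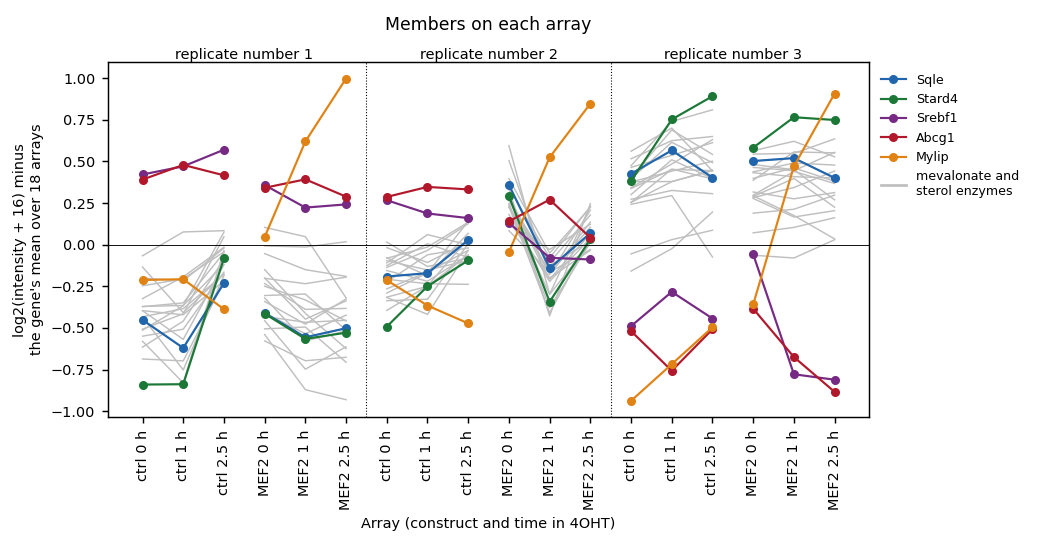
Level of each member on each of the 18 arrays as log2(intensity + 16) minus its mean over the arrays, in blocks of replicate number; lines join the 3 times of 1 construct within a number, grey for mevalonate and sterol enzymes. Sqle and Stard4 are highest and Srebf1 and Abcg1 lowest in number 3 in both constructs, while Mylip is higher at each later time in MEF2-VP16-ER neurons of every number.

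The sum of squares of each gene over the 18 arrays was divided between group and number. The median share of number was 78.9% over the members, against 21.2% over all probe sets, and that of group was 10.7% against 26.2%. Number held over 50% for 26 of 35 members, with 93.1% for Abcg1 and 88.6% for Sqle. By role, the median share of number was 82.7% in the mevalonate pathway, 81.5% in the sterol enzymes, 66.8% in the regulators and 47.8% in fatty acid and lipid synthesis. Mylip was the reverse, with 5.98% for number and 89.6% for group. Ggps1 (2.96%) and Scap (4.17%) also had little by number.

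**Figure D3:**
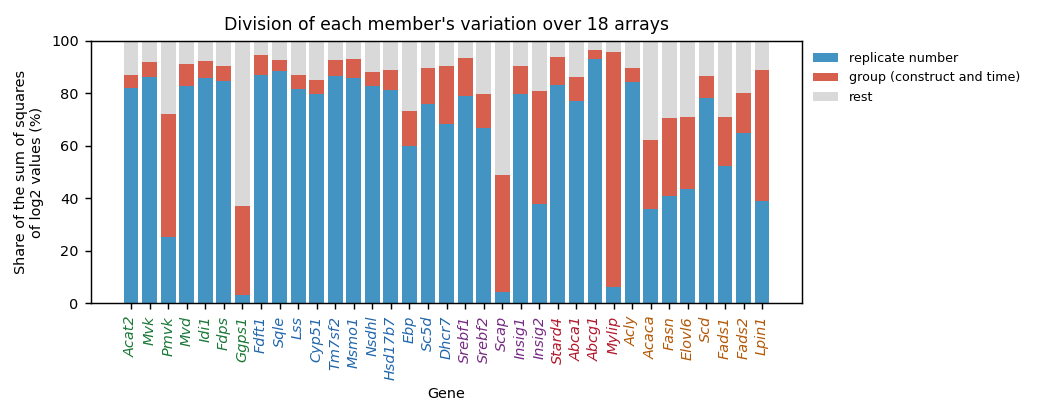
Share of the sum of squares of log2(intensity + 16) over 18 arrays, in percent, that goes with replicate number (blue), with group (red) and with the rest (grey), for each of the 35 genes. The blue share is 88.6% for Sqle and 93.1% for Abcg1, while the red share is 89.6% for Mylip.

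Other measures differed between the numbers as well. The summed intensity of the 11 oligodendrocyte lineage markers was 8360 to 10735 in number 1, 8423 to 12355 in number 2 and 14058 to 18745 in number 3. Of the 11, 7 were called higher in number 3 than in number 1 and 0 lower, led by Pdgfra (1.80), Cldn11 (1.22) and Cnp (1.04). Mbp, Mog, Mag and Mobp were not called. Of these, Mog, Mag and Mobp were dim (mean intensities 74, 110 and 51), but so was Cldn11 (91), which was called. Mbp was brighter (606). Of 11 astrocyte markers 3 were higher and 6 lower in number 3 than in number 1 (Gfap -1.41). Their sums were 54190 to 62046, 43655 to 46584 and 46606 to 49673 in numbers 1, 2 and 3, so here number 1 stood apart. In number 2 against 1, 0 were called higher and 8 lower (2% and 5.05% of all probe sets). In number 3 against 2, 7 were called higher and 1 lower (11.9% and 9.33%). In number 3 against 1, 1 of 15 neuronal markers was higher and 5 were lower. Of 10 microglial markers 0 were higher and 5 lower, of 8 fibroblast markers 0 and 3, and of 5 endothelial markers 0 and 0. Over all probe sets 28.1% were called in that comparison (13.6% higher, 14.4% lower). The ratio of the 3' to the 5' probe set was 1.06 to 1.28, 1.07 to 1.15 and 1.02 to 1.08 for GAPDH and 2.22 to 2.77, 2.18 to 2.61 and 1.84 to 2.36 for beta-actin in numbers 1, 2 and 3. The part of these in the differences between numbers was not tested.

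The study asked which genes MEF2 activates. Mylip was the only member called in the comparisons of times and constructs without the replicate block, and it rose. In control neurons its intensities in numbers 1, 2 and 3 were 305, 305 and 178 at 0 h, 306, 273 and 210.2 at 1 h and 268, 252 and 248 at 2.5 h. In MEF2-VP16-ER neurons they were 368, 345 and 274 at 0 h, 555, 519 and 499 at 1 h and 727, 653 and 682 at 2.5 h. The 1 h and 2.5 h values of MEF2-VP16-ER neurons lay above all 12 others, and every value at 2.5 h lay above every value at 1 h. From 0 to 2.5 h Mylip rose by 1.04 ± 0.17 in MEF2-VP16-ER neurons (2.05-fold, limma adjusted p = 0.00601), in numbers 1, 2 and 3 by 0.95, 0.89 and 1.27. It was 1 of 35 members called there, with 0.789% of all probe sets called. It was also the 1 member whose 3 values at 2.5 h lay above those at 0 h in these neurons (5.76% of all probe sets), while those of Lpin1 and Fads1 lay below (5.53%). In control neurons the change was 0.00. By 1 h the difference was 0.66 (adjusted p = 0.815), with 0 of 35 members called and 0.0354% of all probe sets (1 member, Mylip, at an unadjusted limma p under 0.05; Mylip was called with the block, which calls 0.187% of all probe sets). Without number 1 or without number 2 the adjusted p of the 2.5 h rise was 0.143 and 0.266, and it was under 0.05 with each single array left out.

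The difference between the constructs in their change since 0 h is called the induction here, positive where MEF2-VP16-ER gained more. The induction of Mylip at 2.5 h was 1.03 ± 0.24 (limma adjusted p = 0.151), positive in each number (1.13, 1.15 and 0.82), and at 1 h 0.63 ± 0.24 (adjusted p = 0.996). At 2.5 h it was called with replicate number as a block (SE 0.16, adjusted p = 0.00341), without number 3 (adjusted p = 0.0119) and without the control 0 h array of number 3 (1.28, adjusted p = 0.00721), which held the lowest Mylip value of all arrays, 178. Set directly against control neurons of the same time, a comparison added after the values were seen, Mylip was 1.37 ± 0.17 higher at 2.5 h (2.58-fold, limma adjusted p = 0.000462; 1.28% of all probe sets called) and 0.97 ± 0.17 higher at 1 h (adjusted p = 0.0551; 0.0612%). At 0 h the constructs differed by 0.34 ± 0.17 (adjusted p = 0.595).

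**Figure D4:**
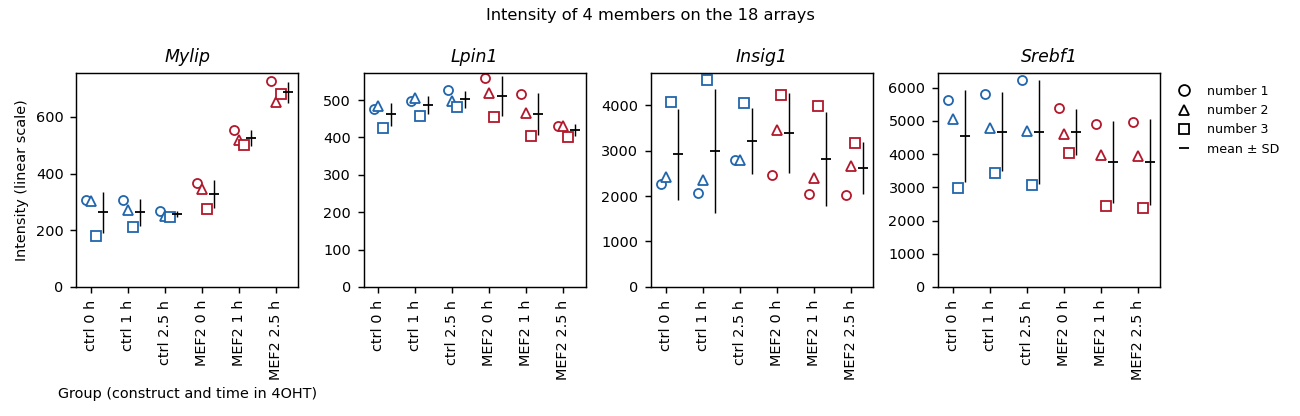
Intensity (linear scale, from 0) of Mylip, Lpin1, Insig1 and Srebf1 on the 18 arrays by group, with a symbol for each replicate number and the mean ± SD of 3 arrays. Mylip rises from 274 to 368 at 0 h to 653 to 727 at 2.5 h in MEF2-VP16-ER neurons, while Insig1 and Srebf1 are spread by number within each group.

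Lpin1 had the next smallest p. It gave 476, 484 and 426 in numbers 1, 2 and 3 of the control at 0 h, 496, 506 and 458 at 1 h and 527, 498 and 481 at 2.5 h. With MEF2-VP16-ER it gave 559.8, 518 and 454, 516, 466 and 405 and 430.2, 429 and 402. In each number the control value at 2.5 h lay above that at 0 h, and the MEF2-VP16-ER value at 2.5 h lay below that at 0 h. The induction at 2.5 h was -0.38 ± 0.12 (limma adjusted p = 0.572), in the 3 numbers -0.51, -0.30 and -0.34. With the replicate block it was called (SE 0.08, adjusted p = 0.0246), and so was the change from 0 to 2.5 h in MEF2-VP16-ER neurons (-0.27, adjusted p = 0.0138, with 2.33% of all probe sets called; 0.357 without the block). Its second, dimmer probe set gave an induction of -0.39 but was not called with the block (adjusted p = 0.316), nor was its change from 0 to 2.5 h in MEF2-VP16-ER neurons (-0.30, adjusted p = 0.164).

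For the members together, 0 of 35 were called in the induction at 2.5 h, with 0.177% of all probe sets called; 3 (Mylip, Lpin1 and Ggps1) had an unadjusted limma p under 0.05, as had 1485 of the 31042 probe sets. With the replicate block 2 were called, Mylip and Lpin1, against 0.937% of all probe sets, and 12 had an unadjusted p under 0.05, as had 2619 probe sets. The median induction of the members was -0.24, against 0.00 over all probe sets, and 33 of 35 were negative, against 48.5% of all probe sets. In numbers 1, 2 and 3 the median was -0.31, -0.27 and -0.13, and 22 members (62.9%) were negative in all 3, against 14.6% of all probe sets. Most members moved together from array to array, so counts of members, here and in the other comparisons, are not counts of separate measurements. All 7 mevalonate genes, 11 sterol enzymes, 5 regulators and 8 fatty acid and lipid genes were negative, as were Stard4 and Abcg1; Mylip and Abca1 were positive. The 11 oligodendrocyte lineage markers also had a negative median induction at 2.5 h, -0.16, and the 10 microglial markers a positive one, 0.13, with 0 markers of either called; the medians of the neuronal and astrocyte markers were 0.01 and 0.05. The part of these in the members' values was not tested.

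By role, the median induction at 2.5 h was -0.32 in the mevalonate pathway, -0.30 in the sterol enzymes, -0.24 in the regulators and -0.19 in fatty acid and lipid synthesis. The lowest were Mvd (-0.67 ± 0.70), Stard4 (-0.62 ± 0.68; 0.00 and -0.25 by its dimmer probe sets), Sc5d (-0.56 ± 0.45), Insig1 (-0.53 ± 0.46) and Dhcr7 (-0.50 ± 0.32). None of these was called with or without the block. Insig1 gave -0.59, -0.58 and -0.41 in numbers 1, 2 and 3, and Dhcr7 gave -0.78, -0.45 and -0.26. Sqle gave -0.31, -0.51 and -0.08. Without the block, Srebf1 (-0.39 ± 0.47), Srebf2 (-0.24 ± 0.18) and the exporter Abca1 (0.26 ± 0.33) had errors close to or above the size of the difference. From 0 to 2.5 h in MEF2-VP16-ER neurons Srebf1 changed by -0.36 (limma adjusted p = 0.0798 with the block, not called). Its dimmer probe set gave -0.43 there and was called with the block (adjusted p = 0.0248), where 2.33% of all probe sets were called. In the induction at 2.5 h that probe set gave -0.43 and was not called (adjusted p = 0.262 with the block). The median SE over the sterol enzymes was 0.38 without and 0.15 with the replicate block.

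The median change with time lay on opposite sides of 0 in the 2 constructs. In control neurons 32 of 35 members were higher at 2.5 h than at 0 h, against 46.4% of all probe sets. The median was 0.14 (0.25, 0.11 and 0.10 in numbers 1, 2 and 3), and 19 members (54.3%) were higher in all 3 numbers, against 9.88% of all probe sets. In MEF2-VP16-ER neurons 31 of 35 were lower at 2.5 h, against 51.8% of all probe sets, with a median of -0.11 (-0.11, -0.17 and -0.06 in numbers 1, 2 and 3). That median was 0.04, of the other sign, without the 2.5 h array of number 1 and -0.02 without the 0 h array of number 3. Without single arrays the control median stayed positive, from 0.03 to 0.29. These fits had no block, so leaving out 1 array left groups with unlike numbers, and differences between numbers enter their medians. Taken within each number, the MEF2-VP16-ER median was negative in all 3. At 0 h 33 of 35 were higher with MEF2-VP16-ER than in control, with a median of 0.17, and in numbers 1, 2 and 3 the medians were 0.11, 0.35 and 0.09. In all 3 numbers 19 members (54.3%) were higher, against 24% of all probe sets. All these comparisons share their 0 h arrays with the induction, so they are not separate measurements of it. In the control comparison limma called 0 members and 0% of all probe sets (1 member, Ggps1, and 667 probe sets at an unadjusted p under 0.05; 0 members with the block), and between the constructs at 0 h also 0 members and 0% (2 members, Pmvk and Insig2, and 2736 probe sets; 0 members with the block). The values of the constructs at 0 h did not overlap for Insig2 and Ggps1, both higher with MEF2-VP16-ER (2 members; 8.06% of all probe sets).

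The MEF2-VP16-ER 0 h array of number 2 was high for many of these genes. There Mvd was 1542 against 827 in the control array of the same number, and Sqle 4373 against 2982. The difference between constructs at 0 h was 0.89, 0.82, 0.79 and 0.55 for Mvd, Lss, Acat2 and Sqle in number 2, and 0.15, 0.04, 0.00 and 0.04 in number 1. Compared at 2.5 h alone, without the 0 h arrays, the median difference between constructs over the members was -0.09, and at 1 h -0.02. At 2.5 h with 1 array left out, the median induction ran from -0.39 without the control 0 h array of number 3 to -0.08 without the MEF2-VP16-ER 2.5 h array of number 1. Those fits also had no block and left groups with unlike numbers.

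**Figure D5:**
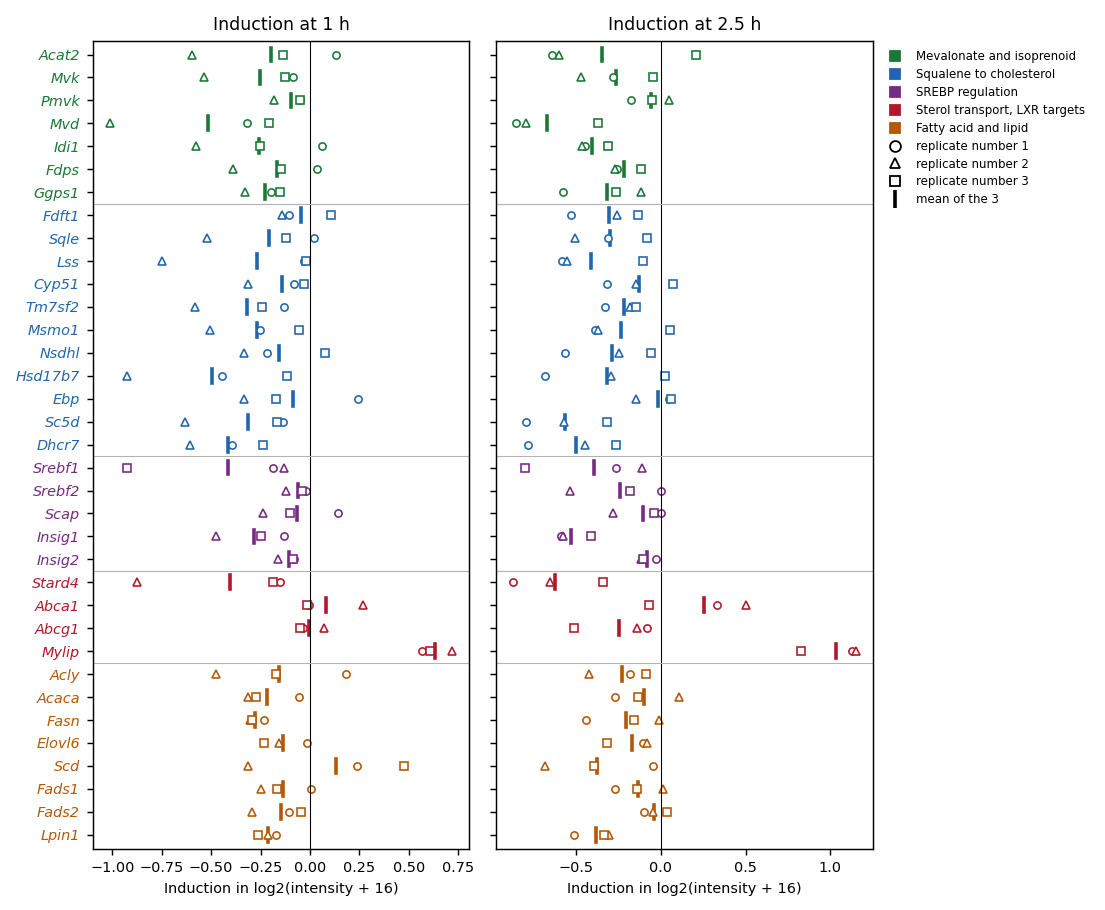
Induction of each of the 35 genes at 1 h and at 2.5 h in log2(intensity + 16), with a symbol for each replicate number and a bar for their mean, coloured by role. At 2.5 h 33 of 35 bars lie below 0 and the bar of Mylip stands at 1.03; the 3 symbols of a gene are often further apart than its bar is from 0.

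At 1 h Mylip again had the smallest p, and most other members had small negative values. In the induction limma called 0 members, with 0.00322% of all probe sets called, and 1 member (Mylip) had an unadjusted p under 0.05, as had 1459 probe sets; with the block 0 were called, with 0.029% of all probe sets called, and 10 had an unadjusted p under 0.05, as had 2611 probe sets. The median was -0.20, against -0.02 over all probe sets, and 32 of 35 were negative, against 55.9% of all. It was -0.08, -0.33 and -0.13 in numbers 1, 2 and 3. After Mylip the smallest p values were those of Fasn (-0.28) and Lpin1 (-0.21). From 0 to 1 h in MEF2-VP16-ER neurons 32 of 35 members were lower, against 56.8% of all probe sets, with a median of -0.19. That median was -0.08, -0.34 and -0.02 in numbers 1, 2 and 3, and 12 members (34.3%) were lower in all 3, against 17.6%. After Mylip, Fasn (-0.22) and Acaca (-0.20), successive steps of fatty acid synthesis, had the smallest p values and neither was called. In control neurons the median from 0 to 1 h was 0.02, with 0 members and 0% of all probe sets called by limma, 0 members and 840 probe sets at an unadjusted p under 0.05, and 0 members with the block. Between the inductions at 2.5 h and 1 h, limma called 0 members (0.0419% of all probe sets; 0 at an unadjusted p under 0.05; 0 with the block), and Mylip (0.40), Lpin1 (-0.17) and Scd (-0.51) had the smallest p values.

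Genes measured by several probe sets mostly gave the same sign. Of 20 such members, all probe sets had 1 sign in 18 for number 3 against 1 and in 16 for the induction at 2.5 h. Mylip, Mvd, Sqle and Insig1 rest on 1 probe set each.

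Of 79 further genes of lipid metabolism and its regulation, 68 were measured. From 0 to 2.5 h in MEF2-VP16-ER neurons 1 rose and 0 fell, with 0.789% of all probe sets called: Fabp3, which encodes a fatty acid carrier protein of the cytosol, rose by 0.49 ± 0.07 (limma adjusted p = 0.00226). With the replicate block 2 rose, with 2.33% of all probe sets called; the second was Prkaa2, a catalytic subunit of the energy sensor AMPK (0.24, adjusted p = 0.0125; 0.272 without the block). The induction of Fabp3 at 2.5 h was 0.51 ± 0.10 (adjusted p = 0.0584; 0.0208 with the block). In the induction at 2.5 h 0 of the 68 were called (0.177% of all probe sets), and 1 with the block (0.937%). An unadjusted limma p under 0.05 was found for 6, and for 1485 of the 31042 probe sets. After Fabp3 the HDL receptor gene Scarb1 (-0.39) had the smallest p. At 1 h 0 were called as well (0.00322%), and 0 with the block (0.029%). There 5 had an unadjusted p under 0.05, as had 1459 probe sets. In number 3 against number 1, 32 of the 68 were called, 18 higher and 14 lower, with a median of 0.02; over all probe sets 28.1% were called (13.6% higher, 14.4% lower).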

How the data were processed

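Intensities on a linear scale were deposited by the authors, 1 value per probe set and array, for RNA labelled by the standard Affymetrix protocol per the labels; how they were normalized is not stated in the labels or the file. From these, log2(intensity + 16) was computed without further normalization. All 18 arrays were used; 57 control probe sets were left out and 31042 tested without a filter. Gene symbols came from the array's annotation (20826 probe sets with 1 symbol, 14217 genes), and each gene is its probe set with the highest mean.

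Group means of 6 groups were fitted in limma with eBayes (12 residual degrees of freedom, prior 2.89, median residual SD 0.10), and p-values were adjusted by Benjamini-Hochberg over all probe sets. Replicate numbers were compared in a fit with group and number as terms. The same fit is the replicate block (10 residual degrees of freedom, prior 5.13). Residuals of same-numbered arrays correlated above 0.1 in 44 of 45 pairs; the exception was MEF2-VP16-ER at 0 and 1 h in number 2 (0.0677). The comparisons that use that pair (MEF2-VP16-ER from 0 to 1 h and the induction at 1 h) did not pass this check of pairing, and the others did. The labels state no block, so values come from the fit without it unless the block is named, also where the check was passed. Without the block the differences between numbers stay in the SE, which is then larger for genes that differ by number. The blocked value stands beside those whose call it changes. Array columns were checked for duplicates (0 found), and the steps were tested on simulated data. The members, the lists of other genes and the rule for naming genes were chosen with earlier results of these data known. All members are accounted for. Values by array or number are given for Sqle, Insig1, Insig2, Srebf1, Srebf2, Stard4, Mvd, Abca1, Mylip and Fasn, for members called and for the 3 with the smallest p in a comparison. Of the other pathway genes, up to 6 called per comparison, by smallest p, are named, or up to 2 where none was called; Prkaa2, called only with the block, was added after its values were seen. Alternatives were pseudocounts of 1 and 64, centring on array medians, quantile normalization, brighter probe sets only, the mean over a gene's probe sets, eBayes with trend and robust, fewer groups in the fit, the block and leaving out arrays. The fits used limma 3.58.1 in R 4.3.3 and the figures matplotlib 3.10.9 in Python 3.11.15.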

Additional observations from a re-analysis of the deposited data

Results flagged for a closer look

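For Mylip and Lpin1 the change from 0 to 2.5 h differed between the constructs in limma's test of the difference with replicate number as a block. For Mylip the difference was 1.03 log2 units (adjusted p = 0.00341; 0.151 without the block), from a change of 1.04 with MEF2-VP16-ER and 0.00 in the control, and it was positive in 3 of 3 numbers. For Lpin1 it was -0.38 log2 units (adjusted p = 0.0246; 0.572 without the block), from -0.27 and 0.12, and it was negative in 3 of 3 numbers; its second probe set gave -0.39 and was not called (adjusted p = 0.316 with the block). Both rest on 3 arrays in each of 4 groups.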

How the results depend on the processing

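Over 34 alternatives, medians of the 35 members kept the sign of the value given in 223 of 233 cases. The count of members called was within 1.5 times of that given except as follows. With the replicate block it was 2 for the induction at 2.5 h (Mylip and Lpin1), 2 for MEF2-VP16-ER from 0 to 2.5 h and 1 (Mylip, adjusted p = 0.0259) for MEF2-VP16-ER from 0 to 1 h, where the numbers did not pass the pairing check; the block changed no other count of members called by construct or time. With constructs compared at 1 time only and the 0 h arrays unused, added after the values were seen, it was 1 at 2.5 h, and the medians were -0.086 at 2.5 h and -0.019 at 1 h. For number 2 against 1 it was 2 in control arrays, 7 in MEF2-VP16-ER arrays and 1 at 0 h (added after the values were seen). For number 3 against 2 it was 8 in MEF2-VP16-ER arrays and 5 at 0 h, and for 3 against 1 the median was 0.46 in MEF2-VP16-ER arrays; these fits hold fewer arrays. Leaving out single arrays or a number gave counts of 0 to 1 and medians of -0.39 to -0.084 for the induction at 2.5 h, and 0 to 1 and -0.27 to 0.040 for MEF2-VP16-ER from 0 to 2.5 h. Counts of 0 were kept in the rest, with medians of -0.33 to -0.0053 for the induction at 1 h, -0.17 to 0.11 for the difference of the inductions, -0.32 to -0.05 for MEF2-VP16-ER from 0 to 1 h, 0.034 to 0.29 for control from 0 to 2.5 h, -0.17 to 0.17 from 0 to 1 h and 0.07 to 0.30 between constructs at 0 h. For numbers they gave 15 to 19 and 0.17 to 0.26 (2 against 1), 28 to 31 and 0.49 to 0.58 (3 against 1), and 24 to 27 and 0.29 to 0.37 (3 against 2). For constructs and times, leaving out 1 array left groups with unlike numbers, so differences between numbers enter those medians. The number of arrays, 3 a group, limits the precision. The normalization of the deposited values is unknown here.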

Other observations

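Among the 68 other lipid genes measured, 32 were called in number 3 against number 1 (28.1% of all probe sets). Of the 6 with the smallest p, 5 were higher in number 3 on the log2 scale. Aacs, which activates acetoacetate, was 0.60 higher (limma adjusted p = 2.69e-06), and Lcat, which esterifies cholesterol on lipoproteins, was 0.65 higher (adjusted p = 8.68e-06). Apod, an apolipoprotein made by glia, was 0.79 higher, Acsl3, which activates long-chain fatty acids, 0.43 and Pcyt2 of phosphatidylethanolamine synthesis 0.44. Dgat2, which makes triglycerides, was lower (-0.39, adjusted p = 9.79e-06).

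Number 3 differed from number 2 in 21 of the 68, 15 higher and 6 lower (21.2% of all probe sets). Lcat (0.66), the brain fatty acid carrier Fabp7 (0.30), the elongase Elovl5 (0.29), Apod (0.65) and Acss2, which activates acetate (0.56), were higher, and lipoprotein lipase Lpl was lower (-0.38). Number 2 differed from number 1 in 10 of the 68, 6 higher and 4 lower (7.05% of all probe sets). Lpl (0.36), the sterol transporter Abcg4 (0.19) and Aacs (0.26) were higher. Soat1, which makes cholesterol esters (-0.44), Dgat2 (-0.21) and the lysosomal cholesterol carrier Npc2 (-0.21) were lower. These differences were taken within the 6 groups, 6 arrays a number.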
